A study of Mus musculus with 12 samples.

Results

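The mouse mitochondrial genome carries 37 genes in the GENCODE M21 annotation, 13 for proteins, 2 for ribosomal RNAs (rRNAs) and 22 for transfer RNAs (tRNAs), and all genes annotated on chromosome M were taken as members, out of 54115 genes with a transcript in the deposited tables. Their RNA was followed in eosinophils, granulocytes of type 2 immunity, that were sorted from untreated male FVB/NJ mice at 20 weeks of age on chow. The 3 groups of 4 libraries were blood (mice 2807, 2771, 2683 and 2668), gonadal white adipose tissue (mice 2846, 2807, 2683 and 2668) and subcutaneous white adipose tissue (mice 2846, 2807, 2771 and 2668), so that 5 wild-type animals gave 12 libraries. Cells were sorted as live CD45+ CD11b+ SiglecF+ cells. Adipose tissue, unlike blood, had first been digested with collagenase type II (1 mg/mL, 45 min, 37 °C), so tissue of origin and digestion cannot be told apart. Libraries were made from total RNA with a stranded low-input kit, and levels are estimated reads per gene.

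Mitochondrial DNA is transcribed from both strands into long precursors. The tRNAs lie between most of the other genes, and their excision by RNase P and RNase Z releases the rRNAs and mRNAs. The rRNAs form the mitochondrial ribosome, which translates the mRNAs into core subunits of respiratory complexes I, III and IV and of ATP synthase, while every protein that copies, transcribes, processes or translates this genome is encoded in the nucleus.

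The libraries held 12477671 to 23734940 estimated reads, except the mouse 2846 subcutaneous library, with 4379954. In that library the difference between a transcript's length and its effective length, which follows the mean fragment length, was 154 bases, against 193 to 233 in the other 11. Levels in CPM are counts scaled to library size, and in marker sums to all gene-assigned reads. Summed levels of 8 eosinophil markers were 8243 to 9185 CPM in blood, 3587 to 6795 in gonadal and 2310 to 6609 in subcutaneous libraries. The lowest sum was that of the mouse 2846 subcutaneous library, where 2 of the markers, Epx and Prg2, were at 0. The 10 macrophage markers summed to 318 to 717, 830 to 2827 and 866 to 3497 CPM, 9 neutrophil markers to 2594 to 3850, 193 to 442 and 163 to 706 CPM, and 8 fibroblast markers to 135 to 209, 164 to 548 and 235 to 3187 CPM in blood, gonadal and subcutaneous libraries. From 2 to 4 of the 8 fibroblast markers were at 0 in each blood library, and none in adipose libraries. Of the 8, 7 were higher in each depot than in blood by the edgeR test described below, where 15.4% of all genes were higher. The median log2 fold change of the 8 was 6.67 in gonadal and 8.34 in subcutaneous cells, although the sums of blood and gonadal libraries overlapped. The 6 adipocyte markers summed to 0.356 to 4.85 CPM in blood, with 4 or 5 of them at 0, against 11.1 to 94.0 in gonadal and 5.10 to 98.3 CPM in subcutaneous libraries, so that blood lay below both depots. The sums of the depots did not overlap for 6 T cell markers (0.868 to 3.72 CPM in gonadal, 12.5 to 87.6 in subcutaneous and 7.73 to 22.8 in blood libraries) or for 5 B cell markers (2.37 to 3.40, 8.12 to 53.5 and 14.1 to 194 CPM). By the edgeR test 0 of these 6 and 0 of these 5 markers passed between the depots, where 0.00651% of all genes did. The part of such other cells in the values below was not tested.

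Several mitochondrial mRNAs share nearly all of their sequence with a nuclear gene, and many of the reads that fit both were listed under the nuclear gene. The annotation holds 7 pseudogenes in tandem on the minus strand of chromosome 1 (GRCm38/mm10, chr1:24611535-24616197) that share at least 50% of their 31-base words with a mitochondrial mRNA. The ends of 3 of them are shown beside the mitochondrial genes they match, because these are the bases by which a read can tell the members of a pair apart. Capitals mark bases that the nuclear copy lacks.
mt-Co2: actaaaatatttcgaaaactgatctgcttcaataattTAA
Gm28661: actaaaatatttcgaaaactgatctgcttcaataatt
mt-Co3: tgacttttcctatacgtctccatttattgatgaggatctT
Gm28437: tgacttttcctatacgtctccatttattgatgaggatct
mt-Atp6: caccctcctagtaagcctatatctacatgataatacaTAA
Gm10925: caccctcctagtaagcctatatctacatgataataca
Gm28661 matched the first 681 of the 684 bases of mt-Co2 (subunit 2 of cytochrome c oxidase, complex IV) with 0 mismatches. Gm28437 matched 783 of the 784 bases of mt-Co3, another complex IV subunit, and Gm10925 matched 678 of the 681 bases of mt-Atp6, a subunit of ATP synthase, in the same way. Gm28438 differed from the first 345 of the 348 bases of mt-Nd3, a complex I subunit, by the substitution T3C, counted from 1 at the start of the gene and written with the base of mt-Nd3 first; the differing base is in capitals here.
mt-Nd3: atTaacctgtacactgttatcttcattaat
Gm28438: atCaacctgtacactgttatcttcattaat
These sequences are those of the reference transcripts. The mitochondrial sequence of FVB/NJ was not analysed here.

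The authors' estimated reads split these pairs unevenly between libraries. Gm28661 held 99.4% to 100% of the reads of its pair, and mt-Co2 was listed at 0 in 10 of 12 libraries. Gm10925 held 69.6% to 95.6% of the mt-Atp6 pair. Gm28437 held 14.9% to 95.1% of the mt-Co3 pair, with the lowest and the second highest share (94.2%) both in the subcutaneous group. Gm28438 held 27.1% to 100% of the mt-Nd3 pair, and Gm10222 held 0% to 97.9% of the pair with mt-Nd4l, another complex I subunit. For these last 3 pairs the split ranged widely within each tissue. The other copies took few reads: Gm29216, which matches part of mt-Co1, had reads in the mouse 2846 subcutaneous library only (3.34% of its pair), and Gm28439, identical to 876 bases of mt-Nd4, had 0 in every library. Together the copies held 0.0738% to 0.906% of reads per library. Each copy was then added to its mitochondrial gene. The SD of log2 levels within tissues, pooled over the 3 groups, went from 1.95 to 0.75 for mt-Co3. It went from 1.91 to 0.70 for mt-Nd4l, and from 0.78 to 0.87 for mt-Atp6. Reads within the shared bases cannot be told apart, so levels of the mRNAs are given below with copies added unless stated.

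**Figure D1:**
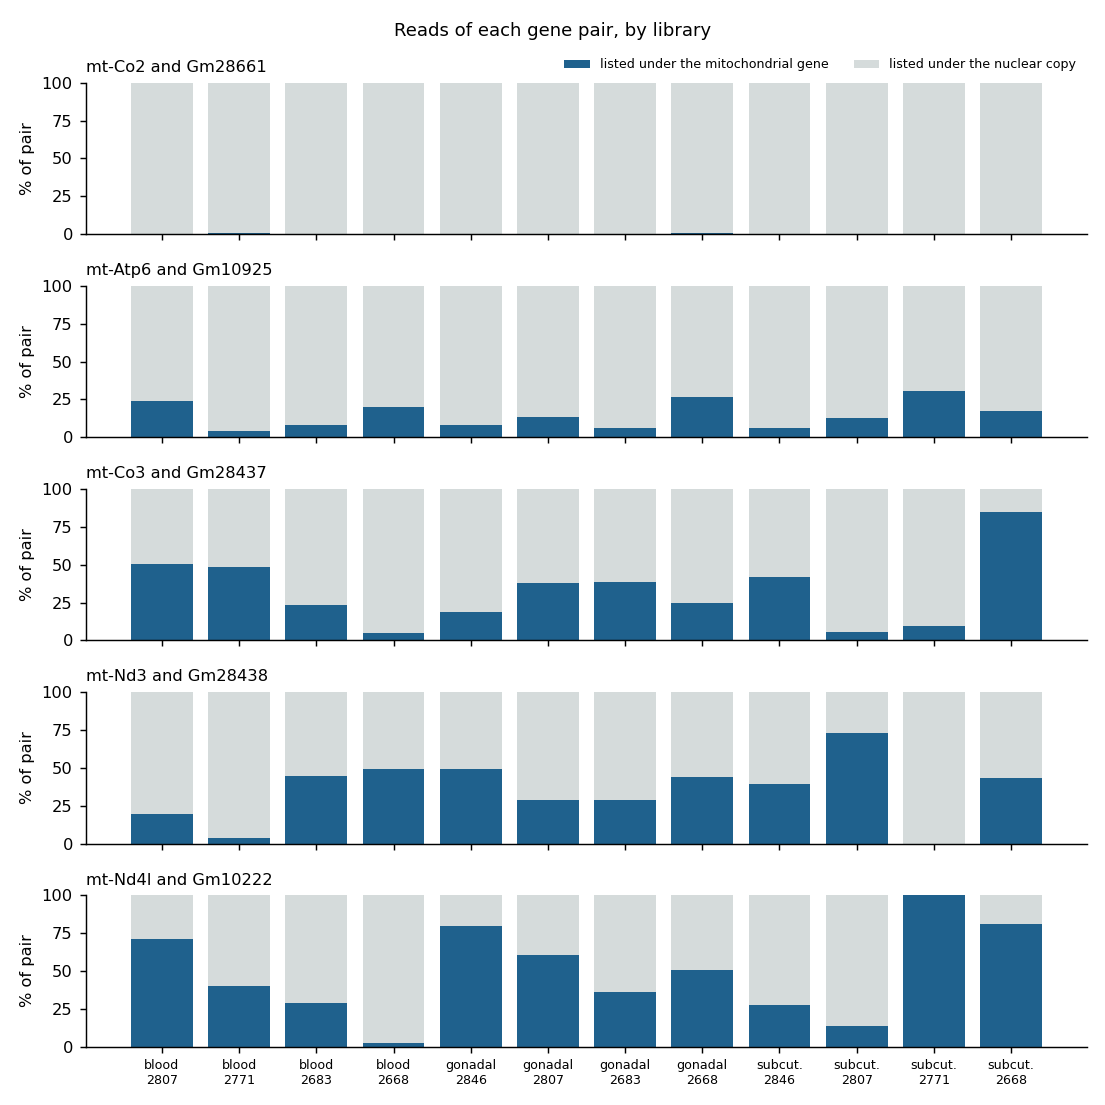
Stacked bars give, for each library (x axis) and 5 gene pairs, the percent of the pair's estimated reads listed under the mitochondrial gene (dark) and under its nuclear copy (light). mt-Co2 is near 0 in each library, and for mt-Co3, mt-Nd3 and mt-Nd4l the split ranges widely within each tissue.

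The mitochondrial rRNAs were the largest class. They made up 5.04%, 6.81%, 7.34% and 4.66% of gene-assigned reads in blood of mice 2807, 2771, 2683 and 2668, and 7.87%, 6.53%, 8.79% and 4.94% in gonadal cells of mice 2846, 2807, 2683 and 2668. In subcutaneous cells of mice 2846, 2807, 2771 and 2668 they made up 28.1%, 5.66%, 7.79% and 8.22%. The groups overlapped, and the library of mouse 2846 stood apart from the 3 others. Mean log2 shares differed by 0.23 between gonadal and blood cells (pooled SD 0.34) and by 0.78 between subcutaneous and blood cells (pooled SD 0.75), or 0.28 (pooled SD 0.31) without the mouse 2846 subcutaneous library. Within animals the rRNA share was higher in adipose than in blood cells in all 6 pairs: the gonadal share was 1.06, 1.20 and 1.296 times the blood share in mice 2668, 2683 and 2807, and the subcutaneous share 1.76, 1.14 and 1.12 times in mice 2668, 2771 and 2807. The pairs are not independent, because the blood libraries of mice 2668 and 2807 enter both sets. In the edgeR fit described below, with copies added and mouse as a block, no rRNA passed. Log2 fold changes against blood were there -0.14 (mt-Rnr1) and -0.05 (mt-Rnr2) in gonadal cells, and 0.71 and 0.77 in subcutaneous cells. In RNA from a pool of sorted cells, more cells of a kind and more RNA per cell cannot be told apart.

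The 13 mRNAs made up 0.699%, 0.961%, 0.620% and 0.270% of reads in the blood libraries, in the same order of mice. They made up 1.01%, 0.936%, 1.25% and 0.603% in gonadal libraries and 3.31%, 0.682%, 0.960% and 0.900% in subcutaneous libraries. Blood of mouse 2668 was lowest and subcutaneous tissue of mouse 2846 highest, and the groups overlapped. Gonadal cells held 1.59 times the mRNA share of blood (log2 difference 0.66, pooled SD 0.63), and the log2 difference was 0.30 (pooled SD 0.40) without the blood library of mouse 2668. Subcutaneous cells held 2.04 times (log2 difference 1.03, pooled SD 0.90), or 1.45 times without the library of mouse 2846 and 1.58 times without the blood library of mouse 2668. Within animals the gonadal share was 2.23, 2.01 and 1.34 times the blood share in mice 2668, 2683 and 2807. The subcutaneous share was 3.33, 0.998 and 0.974 times the blood share in mice 2668, 2771 and 2807, so that of these 3 animals only mouse 2668 had a higher share than in its blood. The mouse 2846 subcutaneous library has no blood library beside it, and also had the fewest reads and the shortest fragments. Its fibroblast sum of 3187 CPM was the highest of all, and its eosinophil sum of 2310 CPM the lowest. The part of these in its mitochondrial share was not tested.

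**Figure D2:**
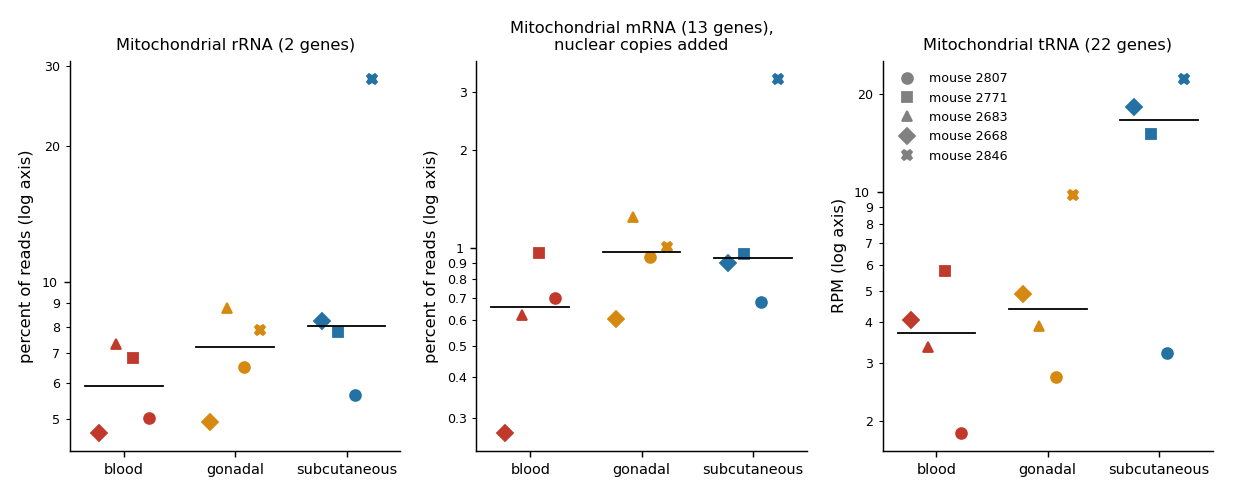
Points are libraries, marked by mouse, and horizontal lines are medians of 4; the y axes are logarithmic and give the percent of gene-assigned reads (rRNA and mRNA) or RPM (tRNA). The mouse 2846 subcutaneous library lies far above the others for rRNA (28.1%) and mRNA (3.31%), and all groups overlap.

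The proportion of rRNA to mRNA reads was less variable in adipose than in blood libraries. It was 7.20, 7.08, 11.8 and 17.3 in blood, 7.79, 6.98, 7.04 and 8.19 in gonadal and 8.49, 8.31, 8.12 and 9.14 in subcutaneous libraries. The highest value belonged to blood of mouse 2668, which had the lowest mRNA share, and the mouse 2846 subcutaneous library lay among the others of its tissue on this measure. The log2 difference was -0.43 for gonadal against blood cells (pooled SD 0.45) and -0.25 for subcutaneous against blood cells (pooled SD 0.44), with overlap in both. Without the blood library of mouse 2668 these were -0.18 (pooled SD 0.28) and 0.01 (pooled SD 0.27). Between the depots the log2 difference, gonadal against subcutaneous, was -0.18, larger than the pooled SD of 0.10, although the gonadal library of mouse 2668 (8.19) lay above the subcutaneous library of mouse 2771 (8.12). It was negative in all 3 animals with both depots, at -0.16, -0.25 and -0.12 in mice 2668, 2807 and 2846. No test was made of this proportion. The ratio of mt-Rnr1 (small-subunit rRNA, chrM:70-1024) to mt-Rnr2 (large-subunit rRNA, chrM:1094-2675), which lie next to each other downstream of the same promoters, differed between the groups by less than the pooled SD. Its log2 difference was -0.11 for gonadal against blood (pooled SD 0.15), -0.07 for subcutaneous against blood (pooled SD 0.16) and -0.04 for gonadal against subcutaneous cells (pooled SD 0.09). The exact two-sided permutation p-values were 0.371, 0.543 and 0.571, each 0.571 after Benjamini-Hochberg adjustment over the 3 comparisons; the smallest p that 4 against 4 libraries allow is 0.0286.

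Per annotated length, the rRNAs stood above every mRNA. Median levels in blood, in RPKM (reads per kb, scaled to library size), were 25138 for mt-Rnr2 and 20252 for mt-Rnr1, whose ranges overlapped. Next came mt-Co1, the catalytic subunit of complex IV (1048, range 521 to 1714), mt-Co2 (981, 452 to 1230) and mt-Atp6 (938, 277 to 1101), whose ranges overlapped too. At the foot of the order were mt-Nd5 (246), mt-Nd4l (242) and mt-Nd3 (154), all subunits of complex I. The same genes, mt-Co1, mt-Co2 and mt-Atp6, headed the mRNAs in gonadal (1608, 1588 and 1361) and subcutaneous cells (1599, 1699 and 1120), and mt-Nd3 was lowest in both (230 and 256). Within each tissue the ranges of all 12 pairs of neighbours in the order of mRNAs overlapped. Within single libraries some pairs kept their order: in 4 of the 12 pairs in blood, 7 in gonadal and 3 in subcutaneous cells the first gene was higher in all 4 libraries. In blood mt-Nd4l stood at 264, 372, 219 and 125 RPKM and mt-Nd3 at 159, 215, 148 and 69.9 RPKM in mice 2807, 2771, 2683 and 2668. The order depends on the length used. mt-Atp8, a small ATP synthase subunit whose gene overlaps mt-Atp6, ranked 9 among the 15 in blood with a median of 504. Its effective length was only 11.97 to 51.3 bases, and the authors' deposited TPM put it at a median of 2152, against 348 for mt-Co1. For mt-Nd4l and mt-Nd3 the effective lengths were 64.4 to 143 and 115 to 194 bases, against annotated lengths of 297 and 348. Deposited TPM in blood, without copies added, had medians of 132 for mt-Nd4l and 82.9 for mt-Nd5. The places of mt-Nd3 and mt-Nd4l given above are by annotated length.

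**Figure D3:**
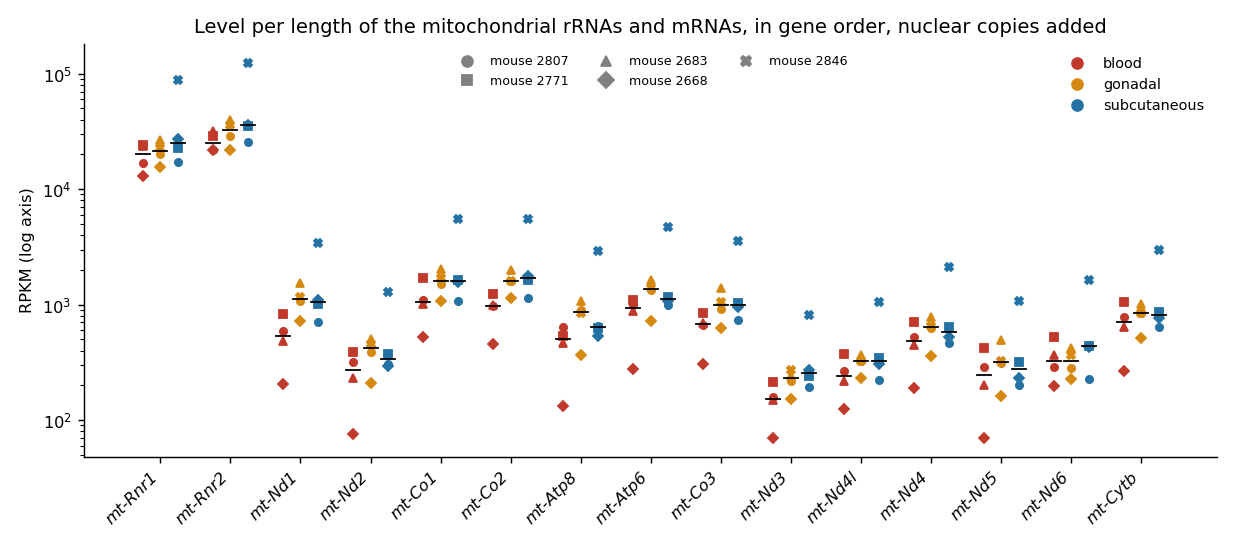
Levels of the rRNAs and 13 mRNAs (x axis, in order along chromosome M) in RPKM on a logarithmic y axis; points are libraries coloured by tissue and marked by mouse, and lines are medians of 4. The rRNAs lie above all mRNAs, mt-Co1, mt-Co2 and mt-Atp6 lead the mRNAs, and the mouse 2846 subcutaneous library is highest for each of these genes.

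Which members differed between tissues was tested with edgeR's quasi-likelihood test on all genes (Benjamini-Hochberg adjustment, threshold 0.05). A filter on low counts left 15367 genes and 20 of the 37 members: 12 mRNAs as listed (mt-Co2 was removed by its zeros), both rRNAs and 6 tRNAs. In gonadal against blood cells 0 of 20 members passed, where 27% of all genes did, and 0 had an unadjusted p below 0.05. DESeq2 called 0 members and 29.5% of all genes. The median log2 fold change of the 12 mRNAs was 0.53, beside 0.08 over all genes. It was 0.26 without the mouse 2668 blood library, with 9 of 12 positive, 0.85 without that of mouse 2771, and 0.36 with mouse as a block. mt-Nd1, a membrane subunit of complex I, had the lowest adjusted p. Its levels were 514, 780, 483 and 190 CPM in blood (mice 2807, 2771, 2683 and 2668) and 1081, 977, 1368 and 689 CPM in gonadal libraries (mice 2846, 2807, 2683 and 2668). Only the mouse 2668 gonadal library fell within the range of blood. The log2 fold change was 1.07 (SE 0.57, adjusted p = 0.184), and the edgeR adjusted p was 0.0422 when the mouse 2846 subcutaneous library, which belongs to neither group but enters the shared spread, was left out. Without the mouse 2807 blood library, mt-Atp6 as listed passed instead (log2 1.23, adjusted p = 0.0399, against 0.53 with all libraries); its share listed under Gm10925 differs between libraries, as described above.

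In subcutaneous against blood cells 2 of 20 members were higher and 0 lower, where 26.8% of all genes were called and 15.4% were higher. These were mt-Nd1 and mt-Tk, the lysine tRNA. mt-Nd1 had 4257, 664, 912 and 1149 CPM in subcutaneous libraries of mice 2846, 2807, 2771 and 2668. Of these only that of mouse 2807 lay within the range of blood. Its log2 fold change was 1.83 (SE 0.58, edgeR adjusted p = 0.0356). It was 0.91 (adjusted p = 0.111) without the mouse 2846 subcutaneous library, and with mouse as a block it was 1.42 and did not pass. The call was also lost, at a fold change of similar size, without the blood library of mouse 2807 (log2 1.81, adjusted p = 0.0658), 2683 (1.81, 0.083) or 2668 (1.52, 0.0847) or the mouse 2846 gonadal library (1.79, 0.0503). All 12 mRNAs tested had positive fold changes, with a median of 1.42 beside 0.07 over all genes; this median was 0.49 without the mouse 2846 subcutaneous library and 0.98 with mouse as a block. No member passed without that library or with the block. DESeq2 called 10 of the 22 members it tested, all higher, where it called 30.7% of all genes and 19.0% were higher. Without the mouse 2807 subcutaneous library, the lowest of its group, 7 of 20 members passed, where 25.6% of all genes did.

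Adding the nuclear copies brought mt-Co2 into the test and 4 of 21 members past the threshold in the subcutaneous comparison, all of them higher. In that fit 26.9% of all genes were called and 15.5% were higher. mt-Co2 with Gm28661 had 596, 819, 713 and 302 CPM in blood and 4904, 769, 1052 and 1320 CPM in subcutaneous libraries. The library of mouse 2807 lay within the range of blood and the 3 others above it. The log2 fold change was 1.73 (SE 0.53, edgeR adjusted p = 0.0303), and 0.81 (adjusted p = 0.0767) without the mouse 2846 subcutaneous library. For mt-Nd3 with Gm28438 the log2 fold change was 1.62 (SE 0.53, adjusted p = 0.0405), and 0.75 (adjusted p = 0.109) without it. As listed, without its copy, mt-Nd3 had a log2 fold change of 2.31 with an SE of 1.18. With mouse as a block none of the 4 passed: the log2 fold change was 1.26 for mt-Co2 (SE 0.47, edgeR adjusted p = 0.0956) and 1.12 for mt-Nd3 (SE 0.43, adjusted p = 0.106). Without the mouse 2668 blood library all 4 calls also ended, with adjusted p-values of 0.0829 for mt-Co2, 0.1 for mt-Nd3, 0.0846 for mt-Nd1 and 0.076 for mt-Tk.

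**Figure D4:**
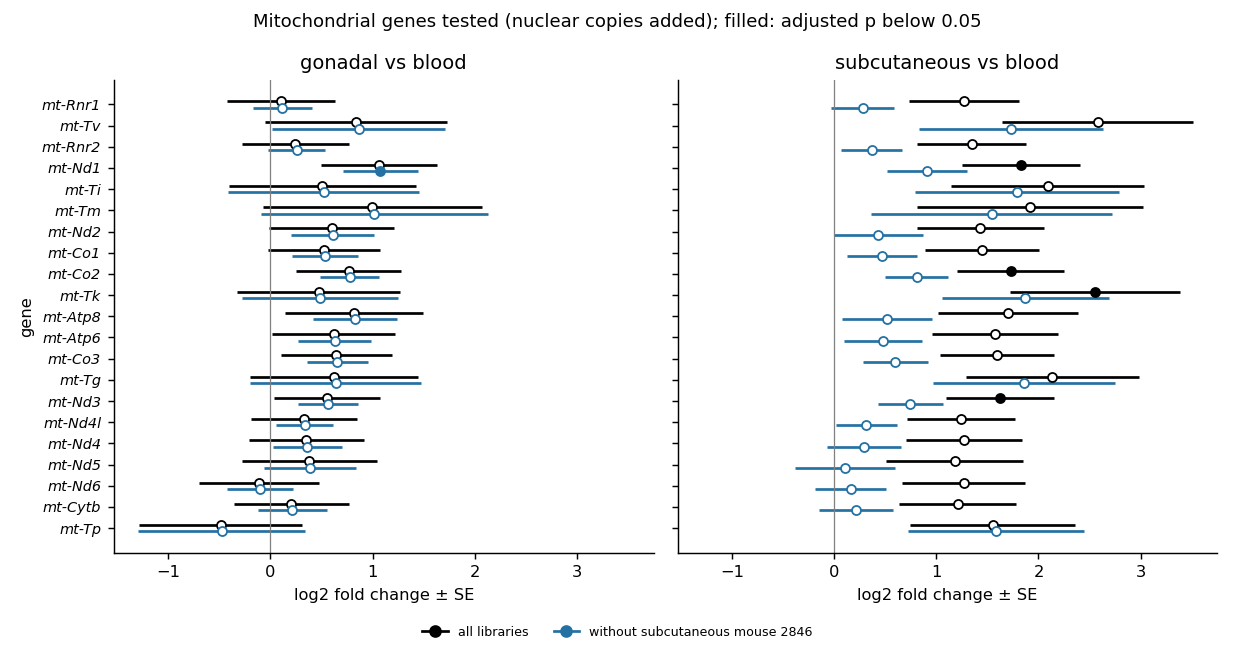
Log2 fold changes with their standard errors (x axis) for the 21 members tested with copies added (y axis, in genome order), with all libraries (black) and without the mouse 2846 subcutaneous library (blue); filled points passed the test. Against blood, the subcutaneous fold changes of the mRNAs and rRNAs are smaller without that library, and no member passes there, while the gonadal ones keep their size and mt-Nd1 passes.

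Between the adipose depots 0 of 20 members passed, where 0.00651% of all genes (1 gene) did. Of the members, 4 had an unadjusted p below 0.05, and DESeq2 called 0. The median log2 fold change of the mRNAs, gonadal against subcutaneous, was -0.89 and became 0.03 without the mouse 2846 subcutaneous library. Members whose CPM did not overlap between groups were few. With copies added, 0 of 21 members separated gonadal from blood libraries, against 36.3% of all genes. The 2 members mt-Atp8 and mt-Tg separated subcutaneous from blood libraries, against 29.5% of all genes, and 0 separated the depots, against 3.62%. For mt-Atp8 the blood values were 118, 107, 99.9 and 26.2 CPM and the subcutaneous values 775, 131, 121 and 119 CPM, so that the gap between the groups was narrow.

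The make-up of the mRNA class was compared through the share of each gene in the reads of the 13 mRNAs. With all libraries kept, 4 of 13 shares did not overlap between gonadal and blood libraries and 3 of 13 between subcutaneous and blood libraries. These counts are not above the background in CPM, where 36.3% and 29.5% of all genes did not overlap. The share does not depend on how much mitochondrial RNA a library held; the measure was chosen after the values were seen and is a description with no test. mt-Nd1 made up 7.22% to 8.33% of the mRNA reads in blood, 11.0% to 11.8% in gonadal and 9.85% to 11.7% in subcutaneous libraries, and neither adipose group overlapped with blood. mt-Cytb, the cytochrome b subunit of complex III, made up 11.3% to 12.8% in blood, 9.25% to 10.4% in gonadal and 9.66% to 10.8% in subcutaneous libraries, again without overlap but lower. mt-Nd4, a complex I subunit, was lower in the same way, with 9.58% to 10.4% in blood, 8.23% to 9.16% in gonadal and 8.09% to 9.34% in subcutaneous libraries. mt-Nd6, the complex I subunit read from the other strand, made up 2.14% to 3.77% in blood and 1.57% to 1.95% in gonadal libraries, and overlapped with blood in subcutaneous libraries (1.73% to 2.56%). The other 9 mRNAs overlapped between each pair of groups with all libraries kept. Without the mouse 2846 subcutaneous library, mt-Co2 was also higher in subcutaneous than in blood libraries. The depots overlapped for all 13 mRNAs.

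The ratio of mt-Nd1 (chrM:2751-3707) to mt-Cytb (chrM:14145-15288) reads restates their shares for single libraries. It was 0.634, 0.661, 0.634 and 0.636 in blood of mice 2807, 2771, 2683 and 2668. It was 1.16, 1.05, 1.28 and 1.18 in gonadal cells of mice 2846, 2807, 2683 and 2668, and 0.959, 0.916, 0.977 and 1.21 in subcutaneous cells of mice 2846, 2807, 2771 and 2668. All 8 adipose libraries lay above all 4 blood libraries, the mouse 2846 subcutaneous library among them, and each animal with both kinds of library showed the same order. Neither gene shares 31-base words with a counted copy, and Gm11410, the pseudogene nearest to mt-Cytb, held at most 1 read in a library. The pair was chosen after the values were seen, as a gene with a higher and a gene with a lower share in adipose libraries. The order of the groups in this ratio follows from those shares and is no separate result. The fragment-length measure was 210 to 233 bases in blood, 207 to 229 in gonadal and 154 to 202 in subcutaneous libraries, so that every subcutaneous library lay below every blood library and the gonadal ones overlapped with blood. Neutrophil, macrophage, eosinophil and adipocyte marker sums also differed between blood and adipose libraries without overlap. The part of fragment length and of these cells in the ratio was not tested.

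**Figure D5:**
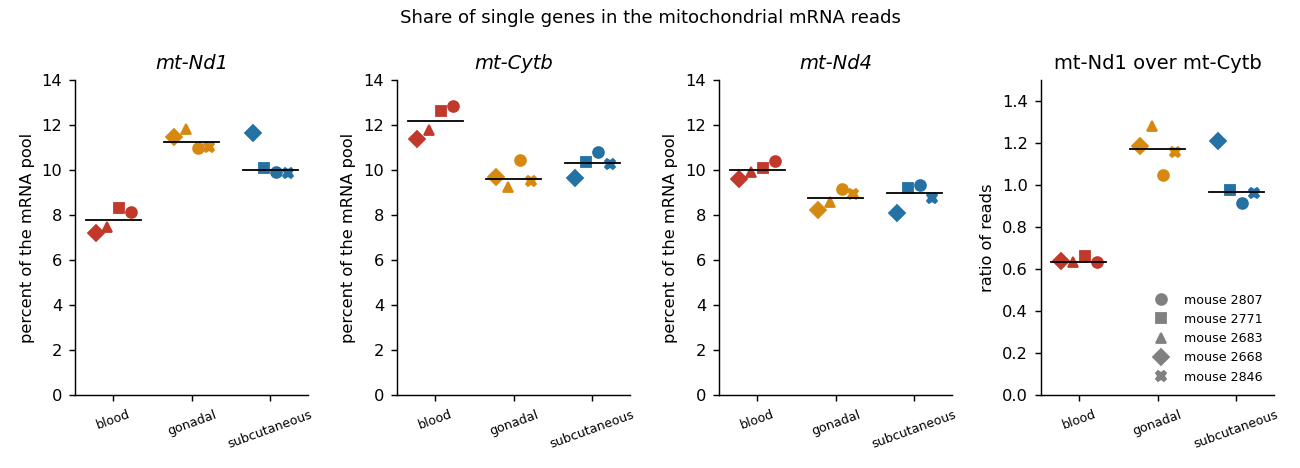
The first 3 panels give the percent of mitochondrial mRNA reads (copies added) from mt-Nd1, mt-Cytb and mt-Nd4, and the last the ratio of mt-Nd1 to mt-Cytb reads; points are libraries marked by mouse, lines are medians of 4, and y axes start at 0. Blood lies below both depots for mt-Nd1 and above them for mt-Cytb and mt-Nd4, and the 4 blood ratios lie between 0.634 and 0.661.

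The 22 tRNAs, which carry amino acids to the mitochondrial ribosome, gave 1278 reads in all libraries together. The effective lengths of their short annotated transcripts were 2.99 to 6.35 bases; the part of transcript length and of library preparation in the low number of reads was not tested. The most read were mt-Tp (proline, 254 reads), mt-Tk (lysine, 184), mt-Tg (glycine, 181), mt-Ti (isoleucine, 176) and mt-Tv (valine, 163), which held 75.0% of the reads. The sequences of the first 3 are given 5′ to 3′ in the DNA letters of the reference, with the anticodon in capitals; mt-Tp lies on the minus strand of chromosome M and the others on the plus strand.
mt-Tp: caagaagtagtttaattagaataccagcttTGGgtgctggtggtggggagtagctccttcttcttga
mt-Tk: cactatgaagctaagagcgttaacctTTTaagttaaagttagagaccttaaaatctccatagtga
mt-Tg: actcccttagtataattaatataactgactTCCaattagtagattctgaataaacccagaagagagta
A total of 7 tRNAs had a read in all 12 libraries. mt-Tc, mt-Tr and mt-Ts2 had 0, which over all libraries allows up to 0.0158 RPM, for counting error only.

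Summed over the tRNAs, blood libraries held, in RPM (reads scaled to library size), 1.84, 5.74, 3.36 and 4.06 and gonadal libraries 9.77, 2.72, 3.90 and 4.88. Subcutaneous libraries held 22.2, 3.22, 15.0 and 18.2. Of the 4 subcutaneous libraries, 3 lay above all blood and gonadal libraries, and that of mouse 2807 lay within the range of blood. The log2 difference between subcutaneous and blood cells was 1.77 (pooled SD 1.02), and 1.47 without the library of mouse 2846. Within animals the subcutaneous share was 4.48, 2.62 and 1.75 times that of blood in mice 2668, 2771 and 2807. mt-Tk had 4, 16, 6 and 13 reads in blood, 16, 9, 10 and 10 in gonadal and 22, 6, 38 and 34 in subcutaneous libraries, each in the order of mice given above. Its log2 fold change of 2.55 against blood (SE 0.83, edgeR adjusted p = 0.0375) was 1.87 (adjusted p = 0.116) without the mouse 2846 subcutaneous library and 1.80 with mouse as a block, where it did not pass. The call was also lost, at fold changes of similar size, without any 1 of the 4 blood libraries (log2 2.29 to 2.83, adjusted p = 0.0644 to 0.0996), gonadal cells of mice 2846 (2.52, 0.0517), 2807 (2.52, 0.0524) or 2668 (2.55, 0.0518), or subcutaneous cells of mice 2771 (2.62, 0.0589) or 2668 (2.63, 0.0558). mt-Tg had 2, 16, 9 and 13 reads in blood and 12, 11, 28 and 38 in subcutaneous libraries (log2 fold change 2.13, SE 0.85, edgeR adjusted p = 0.0786). mt-Tp had 6, 41, 15 and 14 reads in blood, 14, 4, 12 and 16 in gonadal and 9, 5, 59 and 59 in subcutaneous libraries, so that its groups overlapped. The fragment-length measure was lower in every subcutaneous library (154 to 202 bases) than in every blood library (210 to 233 bases). Its part in the differences of these short transcripts was not tested.

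Nuclear genes that serve this genome moved in both directions. Over all genes 15.4% were higher and 11.6% lower in gonadal than in blood cells (27% together), and 15.4% and 11.4% in subcutaneous cells (26.8%). The counts of the lists below are given beside these shares as a description, and none was tested against them. Of 18 genes of mitochondrial DNA copying and transcription, 0 were higher and 5 lower in gonadal than in blood cells (median log2 -0.47, beside 0.08 over all genes), and 0 and 3 in subcutaneous cells (median -0.32, beside 0.07). Tfam, the factor that packs mitochondrial DNA and starts its transcription, fell from 23.3 ± 5.85 (SD, n = 4) to 9.44 ± 3.08 CPM in gonadal cells (log2 -1.30, SE 0.30, edgeR adjusted p = 0.00844). Of 21 RNA processing genes 3 were higher and 2 lower in gonadal cells and 4 and 1 in subcutaneous cells, and with mouse as a block 0 and 2, and 1 and 0. Of 20 genes that modify mitochondrial tRNAs and rRNAs, 1 was higher and 1 lower in gonadal cells and 1 and 0 in subcutaneous cells. Trmt61b, a methyltransferase for mitochondrial RNA, had 1.80 ± 0.562 CPM in blood, 21.5 ± 8.58 in gonadal and 29.9 ± 15.1 CPM in subcutaneous cells (log2 3.57, SE 0.41, and 4.04, SE 0.42).

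Of 15 translation genes 1 was higher and 3 lower in gonadal cells and 3 and 2 in subcutaneous cells (1 and 2 with mouse as a block). Gfm1, an elongation factor, rose from 11.7 ± 1.56 CPM in blood to 21.6 ± 2.89 in gonadal and 21.3 ± 4.97 in subcutaneous cells. Oxa1l, which inserts mitochondrially made proteins into the inner membrane, fell from 30.01 ± 4.69 to 15.1 ± 5.40 and 11.4 ± 1.38 CPM. Of 78 mitochondrial ribosomal protein genes 6 were higher and 3 lower in gonadal cells and 3 and 3 in subcutaneous cells, beside the 27% and 26.8% called over all genes. Mrpl45 rose in gonadal cells (log2 2.22, SE 0.45), and Mrpl33 fell in gonadal and subcutaneous cells (log2 -0.99 and -0.98, SE 0.23 for each).

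Of 11 tested regulators of mitochondrial biogenesis 3 were higher and 3 lower in gonadal cells and 2 and 3 in subcutaneous cells, or 1 and 2, and 1 and 1, with mouse as a block. Pprc1, a coactivator of the PGC-1 family, rose from 10.2 ± 3.61 CPM in blood to 30.5 ± 9.39 in gonadal and 29.2 ± 6.16 in subcutaneous cells. Sirt3, a mitochondrial deacetylase, fell from 56.2 ± 11.1 to 8.37 ± 2.58 and 9.98 ± 3.18 CPM. Of 18 genes of mitophagy and of mitochondrial fusion and fission 2 were higher and 4 lower in gonadal cells and 4 and 4 in subcutaneous cells. Dnm1l, the fission GTPase, rose (log2 0.98, SE 0.18, and 0.88, SE 0.18), and Bnip3l, a mitophagy receptor, fell (log2 -0.92, SE 0.18, and -1.16, SE 0.18). Between the depots 0 genes of these lists passed. The largest edgeR adjusted p among these named changes was 0.0106, that of Gfm1 in subcutaneous cells. The changes of the named nuclear genes passed in each fit that left out 1 library. So did falls of Pink1 in gonadal cells (log2 -1.23 to -1.07 over these fits) and of Mrpl43 (-1.54 to -1.13) and Fis1 (-1.09 to -0.74) in subcutaneous cells. In gonadal cells the call of Mrpl43 was lost in 4 of these fits. The counts of the lists did not all hold. Counts in both directions together that moved by more than 1.5 times were, in gonadal cells, 6 biogenesis regulators (2 without the blood library of 2771 or gonadal library of 2846, and 3 without either library of 2668), 9 ribosomal proteins (4 without blood of 2683, and 5 without blood of 2668 or gonadal cells of 2846), 5 processing genes (3 without blood of 2771 or 2683 or gonadal cells of 2683) and 2 modification genes (1 without blood of 2771, 2683 or 2668 or gonadal cells of 2668). In subcutaneous cells 5 processing genes passed, and 0 to 3 without any 1 of 10 libraries, with 0 without blood of 2771 or 2683. The 5 translation genes there were 2 without blood of 2771 and 3 without blood of 2683 or subcutaneous cells of 2771, and the 5 biogenesis regulators were 2 without blood of 2668 and 3 without blood of 2771 or 2683 or subcutaneous cells of 2771 or 2668. The 8 mitophagy and dynamics genes were 5 without blood of 2771 and 4 without blood of 2668, the 6 ribosomal proteins were 3 without blood of 2668, and the 1 modification gene was joined by a second one without gonadal cells of 2807.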

How the data were processed

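Estimated counts and TPM per transcript are the values the authors deposited, 1 table per library, made with Trim Galore 0.6.4 and Salmon 1.6.0 on mm10 per the submitters' processing notes. The Salmon index and its strand setting are not given in the sources used here. Estimated counts were summed per gene through GENCODE M21 (139791 of 140992 transcripts matched; 1201 did not) and rounded. edgeR 4.0.16 (TMM, filterByExpr, quasi-likelihood, robust) was fitted on all 12 libraries with group as the only term, and DESeq2 1.42.0 as an alternative. The code was also run on simulated independent libraries, with less spread than these and no outlying library. That run does not show how the fit performs on these data. CPM are scaled with TMM factors except in marker sums, which like shares are of gene-assigned reads. Members, gene lists and measures were chosen with earlier results of these data known. Of other genes, at most 2 called genes per list and direction with the largest change and a mean of at least 20 CPM were eligible to be named, and only those whose call held in every fit without 1 library are. The labels give the animal, so libraries are paired by mouse: deviations from group means correlated at -0.111 to 0.358 in 9 same-mouse pairs (mean 0.0842; different mice -0.0188). Intervals and limits cover counting error only. Sequences are those of the GENCODE M21 transcripts (GRCm38).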

Additional observations from a re-analysis of the deposited data

Results flagged for a closer look

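Of 120 groups of 4 libraries examined, 22 held a library that lay far from the 3 others (a gap to its nearest neighbour, as a share of the whole range, above the critical value of Dixon); chance gives about 1 in 20. The mouse 2846 subcutaneous library accounted for 17. Its mRNA share with copies added was 3.31%, against 0.682% to 0.960% in the other subcutaneous libraries, and its rRNA share was 28.1%, against 5.66% to 8.22%. With copies added its rRNA levels were 110176 CPM for mt-Rnr1 and 256983 CPM for mt-Rnr2. Among complex I subunits it had 4257 CPM for mt-Nd1, 1732 CPM for mt-Nd2, 372 CPM for mt-Nd3, 412 CPM for mt-Nd4l, 3782 CPM for mt-Nd4, 2540.0 CPM for mt-Nd5 and 1106 CPM for mt-Nd6. For the other respiratory subunits it had 4437 CPM for mt-Cytb, 11080.1 CPM for mt-Co1, 4904 CPM for mt-Co2, 3660.3 CPM for mt-Co3, 4179 CPM for mt-Atp6 and 775 CPM for mt-Atp8. This library also had the fewest reads (4379954), the smallest fragment-length measure (154 bases) and the highest fibroblast marker sum (3187 CPM, scaled without TMM factors). Its eosinophil marker sum, scaled the same way, was the lowest (2310 CPM), with Epx and Prg2 at 0.

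A further 5 values were flagged. In the mouse 2846 gonadal library, mt-Tm stood at 0.882 CPM against 0.236 to 0.288, and mt-Tg at 1.83 CPM against 0.288 to 0.550, both from few reads. In the mouse 2668 subcutaneous library, mt-Nd1 made up 11.7% of the mRNA reads against 9.85% to 10.1%, and mt-Co2 made up 13.4% against 11.3% to 11.7%. In blood of mouse 2771, which had the highest erythroid marker sum (8577 CPM), the ratio of mt-Nd1 to mt-Cytb reads was 0.661 against 0.634 to 0.636.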

How the results depend on the processing

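Members called higher in subcutaneous than in blood cells numbered 2, and 1 with library totals, 0 with no filter, 10 with DESeq2, 4 with nuclear copies added and 0 with mouse as replicate block. With copies added they were 0 without the mouse 2668 blood library, without the mouse 2846 subcutaneous library, without both, and with the block; those settings were chosen after seeing the data. In gonadal against blood cells 1 member passed with copies added and without that subcutaneous library. Between depots 167 genes were called by DESeq2, 0 with the block, 2 with copies added and without that subcutaneous library, and 0 with copies added and the block or without both libraries. With the block 3 gonadal fold changes turned negative, mt-Rnr1 -0.144, mt-Rnr2 -0.0519 and mt-Tv -0.0517; it ended the subcutaneous calls of mt-Nd1 and mt-Tk, and with copies added also those of mt-Co2 and mt-Nd3, and changed no other member's call. The cause was not tested. Scaling by library totals moved the median of all genes from 0.07 to -0.06 (subcutaneous against blood) and from -0.01 to 0.13 (gonadal against subcutaneous).

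Leaving out 1 library gave 2753 to 5075 genes and 0 to 1 members in gonadal against blood cells, 2737 to 4256 genes and 0 to 7 members in subcutaneous against blood cells (7 without the mouse 2807 subcutaneous library), and 0 to 7 genes between depots. Gonadal fold changes that turned sign, without copies added, ranged over -0.0804 to 0.26 (mt-Rnr1), -0.0339 to 1.13 (mt-Tv), -0.0157 to 0.86 (mt-Co3), -0.26 to 0.89 (mt-Tg), -0.34 to 0.16 (mt-Nd6), -0.0951 to 0.49 (mt-Cytb) and -0.79 to 0.13 (mt-Tp). Between depots these were, without copies added, -1.02 to 0.17 (mt-Nd1), -1.06 to 0.18 (mt-Nd2), -1.15 to 0.0655 (mt-Co1), -1.14 to 0.31 (mt-Atp8), -1.17 to 0.0721 (mt-Nd4), -1.06 to 0.28 (mt-Nd5), -1.25 to 0.0041 (mt-Cytb) and -0.0773 to 0.00908 (log2 ratio of mt-Rnr1 to mt-Rnr2). With copies added and without the mouse 2846 subcutaneous library, mt-Atp6 (0.149, against -0.95), mt-Co3 (0.0575, against -0.95) and mt-Nd4l (0.0208, against -0.91) also turned positive. The tRNAs, with 1278 reads in all, are known with little precision.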
